A study of Saccharomyces cerevisiae with 9 samples.

Results

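The yeast cell wall genes described here are 42 genes for glucan, chitin and mannoproteins, taken from the 5449 genes of Saccharomyces cerevisiae that were measured. They were chosen by gene symbol: each of the 42 symbols was found as the single gene of a probe set on the array, with 1 probe set per gene and 0 probe sets of the kind that also bind related transcripts. All 42 lay above the background limit of 5.64 on the log2 scale. RNA came from 9 arrays of 3 strains, 3 arrays per strain. REF is the reference strain, D12 carries the D12-desaturase gene of the fungus Mucor rouxii, and D126 carries its D6-desaturase gene as well. All 3 were recombinant yeasts held in chemostat culture under glucose limitation, with a dilution rate of 0.1 per h, and were sampled after at least 5 residence times. The labels used here give no host genotype, promoter, plasmid or clone number for any strain, so the strains may differ in more than the desaturase genes.

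The wall of a yeast cell is a mesh of beta-glucan with a little chitin, coated on the outside by mannoproteins. Long chains of beta-1,3-glucan are made by a synthase in the plasma membrane and are then lengthened, branched and cut by enzymes in the wall. Shorter beta-1,6-glucan ties many mannoproteins to this mesh through remnants of their glycosylphosphatidylinositol (GPI) anchors, while the PIR proteins, named for their internal repeats, bind beta-1,3-glucan directly. Chitin is laid down at the bud neck, in the septum and in the side walls. Sensors in the plasma membrane report wall damage to the protein kinase C pathway, known as the cell wall integrity pathway. Many wall genes are also switched on at set points of the cell cycle, since the wall is rebuilt at each division.

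Some cell wall genes of most roles differed between D126 and REF, mostly by small amounts, and mannoprotein genes were among both those that rose and those that fell. Of the 42 genes, 13 rose and 6 fell (Benjamini-Hochberg adjusted p under 0.05 in limma's moderated test, adjusted over all 5449 genes). Over all genes, 21.5% were called in this comparison, 8.59% higher and 12.9% lower. The cell wall genes stood at 45.2%, with 31.0% higher and 14.3% lower. Without REF replicate 2 the number of these genes that rose was 7, and leaving out each array in turn gave 7 to 14. Calls over all genes fell as well without REF replicate 2, from 21.5% to 11.8%. With all 9 arrays, the share that rose was above that of all genes, while the share that fell was close to it. The 42 genes were chosen with earlier results of these data known, so the difference between these shares was not tested. The genes of the crosslinking enzymes Crh1 and Utr2, the 3 listed SUN family genes and the chitin synthase gene CHS2 were among those that rose. So were the sensor genes MID2 and WSC2 and the mannoprotein genes CCW12, PIR1 and CIS3. HPF1, CWP1, PIR3, SPI1, SKN1 and WSC4 fell. Most changes were small: the genes that rose did so by 0.11 to 0.54 on the log2 scale, and the 6 that fell changed by -0.90 to -0.15. The median change was 0.06 over the 42 genes and -0.00 over all genes.

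Against D12, 14 of the 42 genes were higher in D126 and 6 were lower. Over all genes, 22.0% were called, 7.32% higher and 14.7% lower. The median change was 0.08 over the cell wall genes and -0.02 over all genes. The number higher was 9 without D12 replicate 2, D12 replicate 3 or any 1 D126 array. Over all genes, the share called in these fits was also lower, at 12.5% to 20.6%. This comparison uses the same D126 arrays as the one with REF, so the values of both are given side by side and are not independent of each other. Between D12 and REF, 0 of the 42 genes and 0.0% of all genes were called.

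**Figure D1:**
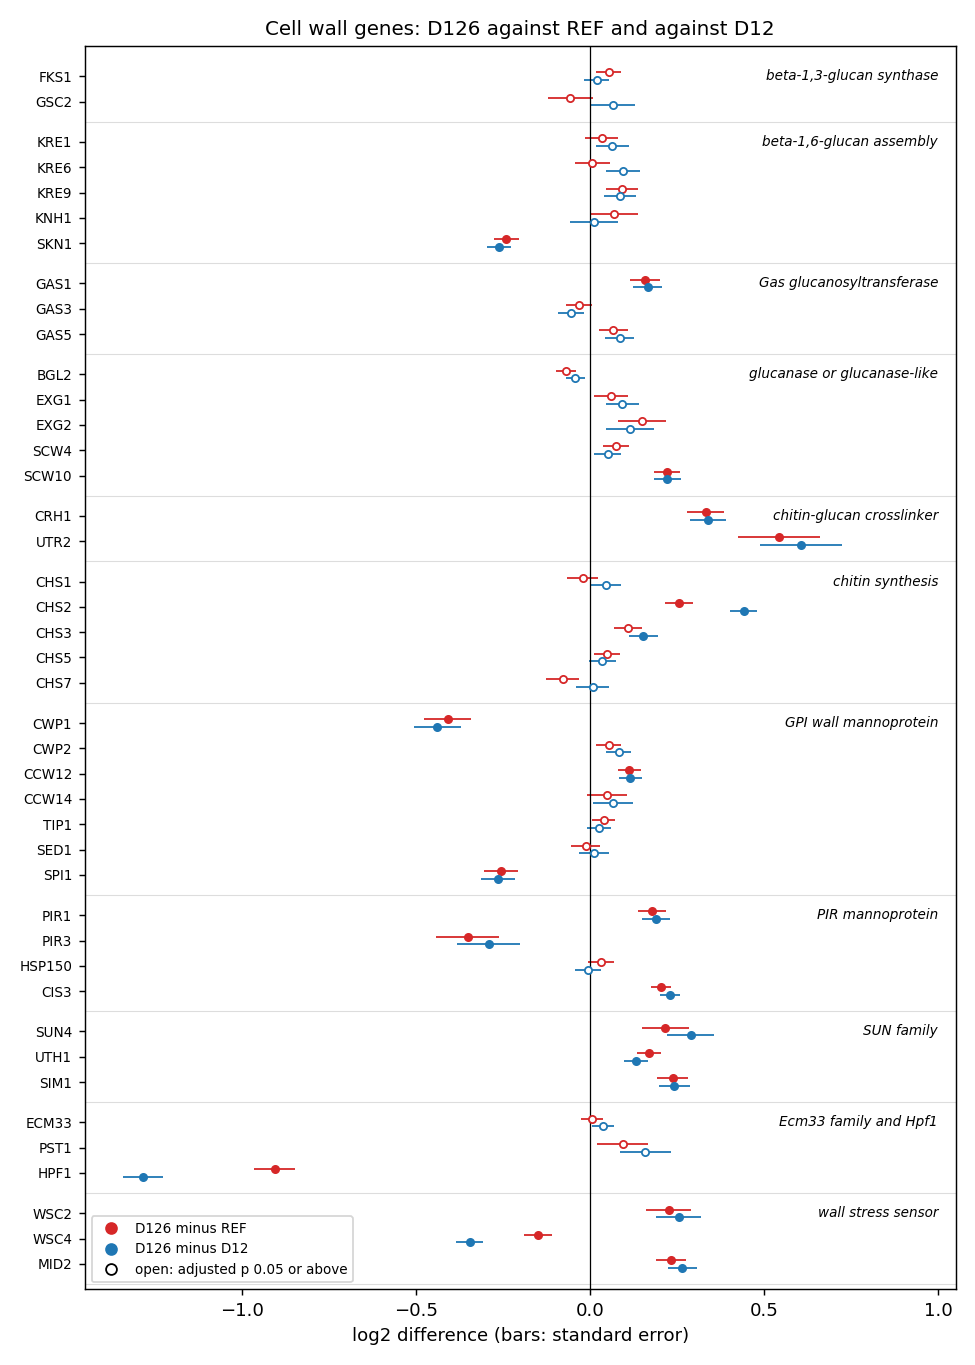
Log2 differences of the 42 cell wall genes, grouped by role, for D126 minus REF (red) and D126 minus D12 (blue). Points are the differences between means of 3 arrays, bars are standard errors, and filled points passed the test. HPF1 lies farthest to the left at -0.90 and -1.28, and UTR2 farthest to the right at 0.54 and 0.61.

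The arrays of each strain were close to each other. The SD over 3 arrays had a median of 0.04 in REF, 0.07 in D12 and 0.04 in D126 for the cell wall genes, close to the medians for all genes (0.04, 0.07 and 0.05). D12 had the widest spread, up to 0.26 for UTR2. Over all genes, D12 replicate 3 stood apart from the other D12 arrays along the second principal component, at 8.92 against -2.73 and -2.22. Over the 42 cell wall genes, the leading principal component held 82.9% of the variance between arrays, and the D126 arrays (-1.16 to -1.03) lay apart from the others (0.29 to 0.91). With HPF1 left out it held 77.2%, and the D126 arrays (0.81 to 0.86) again lay apart from the others (-0.76 to -0.10). Over all genes the leading component held 54.7%, and the D126 arrays (-10.18 to -7.07) likewise lay apart from the others (2.40 to 5.86). The labels do not say whether the 3 arrays of a strain came from separate cultures, and each p-value therefore reflects the spread of these samples alone, which can be technical. All values below are log2 expression levels or log2 differences with their standard error (SE).

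The genes of glucan synthesis itself differed little. FKS1 encodes the main catalytic subunit of beta-1,3-glucan synthase, and GSC2, also known as FKS2, encodes the alternative subunit used on poor carbon sources and under stress. FKS1 stood at 13.80 ± 0.03 in REF, 13.83 ± 0.05 in D12 and 13.85 ± 0.02 in D126 (SD, n = 3 each). GSC2 stood at 13.93 ± 0.06, 13.81 ± 0.13 and 13.88 ± 0.05. In D126 they differed from REF by 0.05 and -0.06, with 95% intervals of -0.03 to 0.13 and -0.20 to 0.09, and neither was called in any comparison. The same was true of 4 of the 5 genes of beta-1,6-glucan assembly. KRE1, KRE6, KRE9 and KNH1 differed from REF by 0.01 to 0.09 and from D12 by 0.01 to 0.09 in D126.

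SKN1 was the exception among the beta-1,6-glucan genes. It encodes a membrane glycoprotein similar to Kre6 and has also been tied to sphingolipid synthesis. Its level was 12.33, 12.35 and 12.38 on the REF arrays, 12.37, 12.40 and 12.34 on the D12 arrays, and 12.09, 12.17 and 12.08 on the D126 arrays. All D126 arrays lay below all others, while REF and D12 overlapped. SKN1 fell by 0.24 (SE 0.04, adjusted p = 0.0019) from REF and by 0.26 (SE 0.04, adjusted p = 0.00137) from D12. KRE6 differed by 0.01 from REF and 0.09 from D12, with an adjusted p of 0.937 and 0.2.

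The Gas proteins lengthen beta-1,3-glucan chains at the outer face of the membrane. GAS1, the main gene of this family, stood at 14.07, 14.12 and 14.07 in REF, at 14.17, 14.04 and 14.02 in D12 and at 14.25, 14.25 and 14.23 in D126. The 3 D126 arrays were above all others. GAS1 rose by 0.16 (SE 0.04, adjusted p = 0.0283) from REF and by 0.17 (SE 0.04, adjusted p = 0.0229) from D12. The call against REF was lost without any 1 of the 6 REF and D126 arrays (adjusted p of 0.0568 to 0.0891) and the call against D12 without D12 replicates 2 or 3 or any 1 D126 array (0.0509 to 0.0747), within ranges of 0.00186 to 0.105 and 0.00375 to 0.118 over all alternatives. GAS3 and GAS5 differed from REF by -0.03 and 0.07 and were not called.

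Of the 5 genes for glucanases and glucanase-like wall proteins, SCW10 rose and the others were not called. SCW10 encodes a soluble wall protein similar to glucanases and related to Scw4. It stood at 13.19, 13.18 and 13.12 in REF, 13.20, 13.17 and 13.12 in D12 and 13.44, 13.36 and 13.36 in D126. REF and D12 were at the same level, and D126 lay above both without overlap. The rise was 0.22 (SE 0.04) over each, with an adjusted p of 0.00385 against REF and 0.00394 against D12. SCW4 differed from REF by 0.08 (adjusted p = 0.182). BGL2, the major endo-beta-1,3-glucanase of the wall, was slightly lower in D126, at 14.66, 14.70 and 14.68 against 14.75, 14.76 and 14.74 in REF. These arrays did not overlap, but the difference of -0.07 (SE 0.03) was not called (adjusted p = 0.113). It passed with array weights (0.0130), with the plain linear model per gene (0.0131) and with a trended, robust prior (0.0222). The exoglucanase genes EXG1 and EXG2 differed from REF by 0.06 and 0.15. The EXG2 difference had an adjusted p of 0.155. It passed when the REF and D126 arrays were fitted alone, at 0.0434 without and 0.0475 with the replicate number as a block, but not with the block on all 9 arrays.

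Against REF, the 2 crosslinking genes rose most of the 42. Crh1 and Utr2, also called Crh2, are transglycosylases that link chitin to beta-glucan. UTR2 stood at 11.59, 11.45 and 11.64 in REF, 11.79, 11.29 and 11.42 in D12 and 11.97, 12.15 and 12.19 in D126. CRH1 stood at 12.66, 12.69 and 12.75 in REF, 12.78, 12.71 and 12.58 in D12 and 13.01, 13.06 and 13.02 in D126. For both genes each D126 array was above each array of the other strains, and REF and D12 overlapped. UTR2 rose by 0.54 (SE 0.12, adjusted p = 0.012) from REF, or 1.46-fold, and by 0.61 (SE 0.12, adjusted p = 0.00735) from D12. CRH1 rose by 0.33 (SE 0.05, adjusted p = 0.00244) and 0.34 (SE 0.05, adjusted p = 0.00252). UTR2 lost its call against REF without REF replicate 2 (adjusted p = 0.0512, within 0.00016 to 0.0512 over all alternatives). Its call against D12 was lost with the replicate block on the D12 and D126 arrays alone (0.0569, within 0.000354 to 0.0569).

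Chitin synthesis genes changed unevenly. CHS2 encodes the synthase that builds the primary septum between mother and daughter cell, and its transcript is known to peak around mitosis. It stood at 11.05, 11.03 and 11.04 in REF, 10.93, 10.84 and 10.80 in D12 and 11.34, 11.29 and 11.26 in D126. The 3 strains did not overlap, with D12 lowest and D126 highest. CHS2 rose by 0.26 (SE 0.04, adjusted p = 0.00245) from REF and by 0.44 (SE 0.04, adjusted p = 0.000192) from D12. CHS3, which encodes the synthase for most chitin of the side wall and the bud neck ring, stood at 12.42, 12.44 and 12.42 in REF, 12.45, 12.39 and 12.32 in D12 and 12.54, 12.58 and 12.49 in D126. D126 lay above both other strains without overlap. CHS3 rose by 0.15 (SE 0.04, adjusted p = 0.0277) from D12. The difference of 0.11 (SE 0.04) from REF was not called (adjusted p = 0.0891). It passed when the REF and D126 arrays were fitted alone (0.0391, and 0.0474 with the replicate block), with quantile normalization (0.0480), with array weights (0.0384) and without D12 replicate 3 (0.0400), but not with the block on all 9 arrays. The CHS3 call against D12 was lost without D12 replicates 2 or 3 or D126 replicates 1 or 2 (adjusted p of 0.0538 to 0.0903, within 0.0124 to 0.125 over all alternatives). CHS1, the repair synthase used after cell separation, and CHS5 and CHS7, which help Chs3 leave the Golgi and the endoplasmic reticulum, differed from REF by -0.02, 0.05 and -0.08 and were not called.

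**Figure D2:**
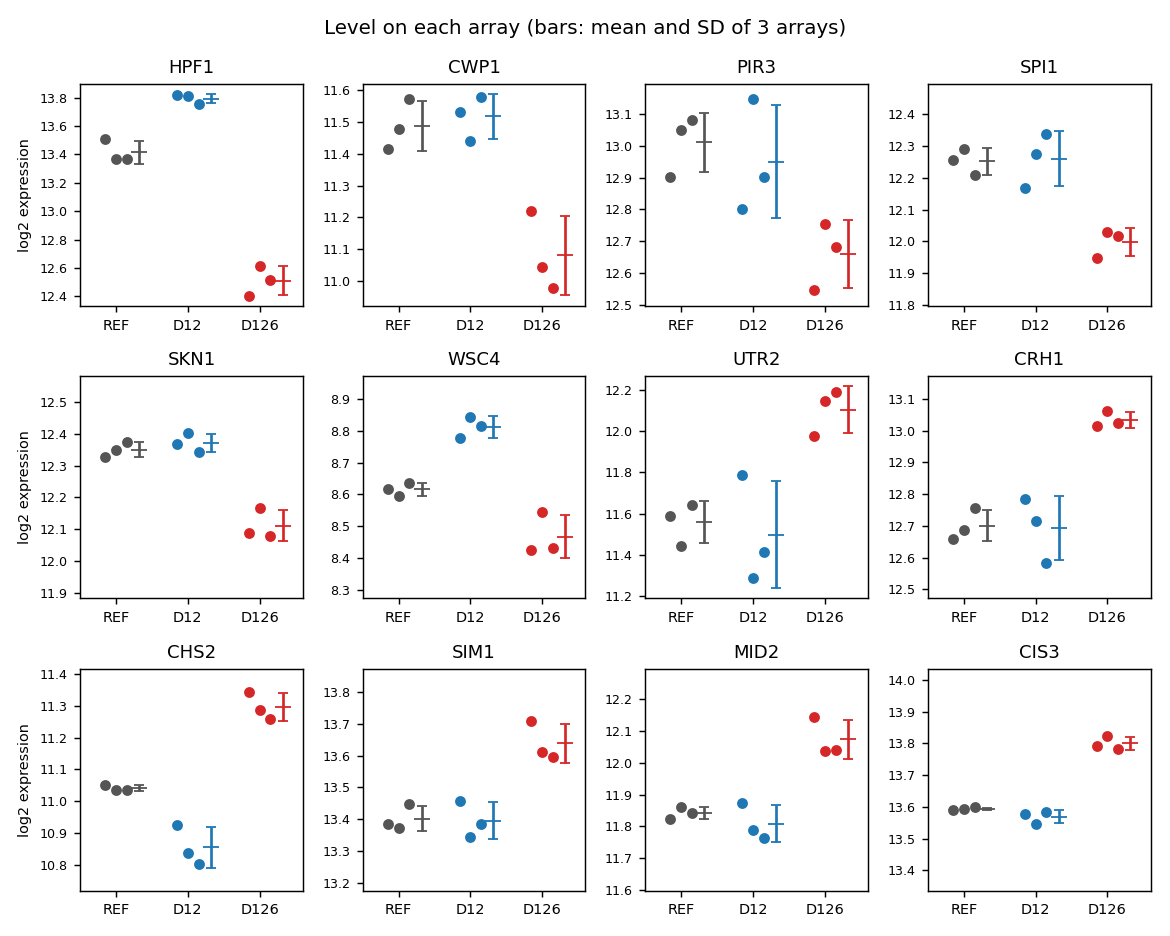
Log2 expression of 12 cell wall genes on each of the 9 arrays, with the mean and SD of the 3 arrays of a strain beside the points. HPF1, CWP1, PIR3, SPI1, SKN1 and WSC4 are lower in D126 than in both other strains, UTR2, CRH1, CHS2, SIM1, MID2 and CIS3 are higher, and the vertical axis differs between panels.

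Among the 7 genes for GPI-anchored wall mannoproteins, CWP1 and SPI1 fell and CCW12 rose. CWP1 encodes a mannoprotein placed mainly at birth scars. It stood at 11.42, 11.48 and 11.57 in REF, 11.53, 11.44 and 11.58 in D12 and 11.22, 11.04 and 10.98 in D126. SPI1, whose transcript is known to build up in stationary phase and under weak acid stress, stood at 12.26, 12.29 and 12.21 in REF, 12.17, 12.27 and 12.34 in D12 and 11.95, 12.03 and 12.02 in D126. For both genes all D126 arrays lay below all others. CWP1 fell by 0.41 (SE 0.07, adjusted p = 0.00342) from REF and by 0.44 (SE 0.07, adjusted p = 0.00273) from D12. SPI1 fell by 0.25 (SE 0.05, adjusted p = 0.00647) and 0.26 (SE 0.05, adjusted p = 0.00573).

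CCW12, a major structural mannoprotein of growing wall, rose slightly. Its level was 15.33, 15.32 and 15.33 in REF, 15.36, 15.33 and 15.27 in D12 and 15.47, 15.42 and 15.43 in D126. The D126 arrays lay above the others, near the highest value deposited for any probe set, 15.51. Its rise was 0.11 (SE 0.03, adjusted p = 0.0369) over REF and 0.12 (SE 0.03, adjusted p = 0.0332) over D12. The CCW12 calls depended on the setting. Quantile normalization lowered the difference to 0.06 against REF and 0.07 against D12, and both calls were lost (adjusted p = 0.146 and 0.0994). Against REF the call was also lost with arrays centred on their medians (0.0539) and without any 1 of the 6 REF and D126 arrays (0.0664 to 0.117), and against D12 without any 1 array but D12 replicate 1 (0.0512 to 0.0889). Over all alternatives the CCW12 p lay within 0.00142 to 0.147 against REF and within 0.00378 to 0.197 against D12. CWP2, CCW14, TIP1 and SED1, which encode further abundant mannoproteins, differed from REF by -0.01 to 0.05 and were not called. CWP2, TIP1 and SED1 also lay near the top of the scale, with REF means of 15.07, 15.02 and 15.16, where array values may be compressed, which was not tested.

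The 4 listed genes of PIR proteins moved in different directions. PIR1 stood at 12.83, 12.78 and 12.88 in REF, 12.84, 12.84 and 12.78 in D12 and 13.06, 12.97 and 13.00 in D126. CIS3, also known as PIR4, stood at 13.59, 13.59 and 13.60 in REF, 13.58, 13.55 and 13.58 in D12 and 13.79, 13.82 and 13.78 in D126. Both genes were highest in D126, without overlap. PIR3 was the reverse, at 12.90, 13.05 and 13.08 in REF, 12.80, 13.15 and 12.90 in D12 and 12.54, 12.75 and 12.68 in D126. Its D126 arrays lay below all others. PIR1 rose by 0.18 (SE 0.04, adjusted p = 0.0131) from REF and 0.19 (SE 0.04, adjusted p = 0.00986) from D12, and CIS3 rose by 0.21 (SE 0.03, adjusted p = 0.00148) and 0.23 (SE 0.03, adjusted p = 0.000832). PIR3 fell by 0.35 (SE 0.09, adjusted p = 0.0252) and by 0.29 (SE 0.09, adjusted p = 0.0496). HSP150, also known as PIR2 and induced by heat, differed by 0.03 from REF and -0.01 from D12 and was not called. PIR1 lost its call against D12 with the replicate block on the D12 and D126 arrays alone (adjusted p = 0.0753, within 0.0041 to 0.0753). Its call against REF was lost without REF replicate 2 (adjusted p = 0.0582, within 0.000451 to 0.0583). PIR3 lost it without REF replicates 2 or 3 or D126 replicates 1 or 3 (0.0637 to 0.0855, within 0.00224 to 0.0855), and against D12 without any 1 array but D12 replicate 1 (0.0569 to 0.154, within 0.00573 to 0.154), with a difference of -0.19 without D12 replicate 2.

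All 3 listed SUN family genes rose in D126. The proteins of this family resemble glucosidases and act in septation and in shaping the wall, and Uth1 has also been studied in mitochondria. SIM1 stood at 13.38, 13.37 and 13.45 in REF, 13.46, 13.34 and 13.38 in D12 and 13.71, 13.61 and 13.60 in D126. SUN4, needed for the parting of mother and daughter, stood at 11.40, 11.36 and 11.46 in REF, 11.45, 11.39 and 11.17 in D12 and 11.58, 11.63 and 11.67 in D126. UTH1 stood at 14.37, 14.35 and 14.43 in REF, 14.44, 14.43 and 14.38 in D12 and 14.58, 14.54 and 14.54 in D126. In each case the 3 D126 arrays were the highest of the 9. From REF, SIM1 rose by 0.24 (SE 0.04, adjusted p = 0.00608), SUN4 by 0.22 (SE 0.07, adjusted p = 0.0487) and UTH1 by 0.17 (SE 0.03, adjusted p = 0.00944). From D12 they rose by 0.24 (adjusted p = 0.00559), 0.29 (0.016) and 0.13 (0.0254). SUN4 lay just under the threshold against REF. It lost that call without any 1 of the REF and D126 arrays or without D12 replicate 2 (adjusted p of 0.06 to 0.15, within 0.000241 to 0.15), and the call against D12 without D126 replicate 3 (0.0621, within 0.00107 to 0.0921). UTH1 lost its call against D12 without D12 replicates 2 or 3 or any 1 D126 array (0.0509 to 0.069, within 0.00552 to 0.148). Its call against REF was lost when all probe sets other than controls were tested (0.0505, within 0.000245 to 0.0505).

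HPF1 showed the largest change of the 42 genes in all 3 comparisons. It encodes a heavily glycosylated wall mannoprotein first known for reducing the protein haze of white wine. HPF1 stood at 13.51, 13.37 and 13.37 in REF, 13.82, 13.81 and 13.75 in D12 and 12.40, 12.61 and 12.51 in D126. The 3 strains did not overlap, with D12 highest and D126 lowest. It fell by 0.90 (SE 0.06, adjusted p = 5.81e-05) from REF to D126, or 1.87-fold, and by 1.28 (SE 0.06, adjusted p = 4.55e-06) from D12 to D126, or 2.43-fold. The difference of 0.38 between D12 and REF was not called (adjusted p = 0.291). ECM33, a GPI protein needed for wall organisation, and its relative PST1, which is known to be induced by wall damage, differed in D126 from REF by 0.01 and 0.10 and were not called.

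The genes of 3 wall stress sensors split. MID2 encodes the sensor best known from mating cells, and WSC2 and WSC4 encode members of the Wsc family. MID2 stood at 11.82, 11.86 and 11.84 in REF, 11.87, 11.79 and 11.76 in D12 and 12.14, 12.04 and 12.04 in D126. WSC2 stood at 11.88, 11.85 and 11.96 in REF, 12.02, 11.82 and 11.75 in D12 and 12.15, 12.12 and 12.10 in D126. These 2 genes were highest in D126, without overlap. WSC4 stood at 8.62, 8.59 and 8.64 in REF, 8.78, 8.84 and 8.81 in D12 and 8.43, 8.54 and 8.43 in D126. Here the strains did not overlap either, with D12 highest and D126 lowest. MID2 rose by 0.23 (SE 0.04, adjusted p = 0.00534) from REF and 0.27 (SE 0.04, adjusted p = 0.00314) from D12, and WSC2 by 0.23 (SE 0.06, adjusted p = 0.0362) and 0.26 (SE 0.06, adjusted p = 0.0224). WSC4 fell by 0.15 (SE 0.04, adjusted p = 0.0282) from REF and by 0.35 (SE 0.04, adjusted p = 0.000539) from D12. The WSC4 call against REF was lost with quantile normalization (-0.09, adjusted p = 0.251) and without any 1 of the REF and D126 arrays except D126 replicate 2 (0.0668 to 0.104, within 0.00401 to 0.251). WSC2 lost its call against REF without any 1 of these 6 arrays (0.0541 to 0.12, within 0.00085 to 0.12), and against D12 without D12 replicates 2 or 3 or any 1 D126 array (0.05 to 0.0727, within 0.00162 to 0.073).

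Of 11 pairs of related cell wall genes, 3 had both members called between D126 and REF, 5 had 1 member called and 3 had none. In that comparison 45.2% of the 42 genes and 21.5% of all genes were called. Whether related genes were called alike more or less often than unrelated ones was not tested. CRH1 with UTR2 and SUN4 with SIM1 rose together, and PIR1 with PIR3 went in opposite directions. In 3 of the 5 uneven pairs the called member fell: SKN1 changed by -0.24 where KRE6 changed by 0.01, CWP1 by -0.41 where CWP2 changed by 0.05, and SPI1 by -0.25 where SED1 changed by -0.01. In the others the called member rose, with SCW10 at 0.22 beside SCW4 at 0.08 and CIS3 at 0.21 beside HSP150 at 0.03. CWP1 and CWP2, PIR1 and PIR3, and HSP150 and CIS3 are direct neighbours in the gene order of assembly R64. Whether the members of a pair differed from each other was not tested. CWP2 and SED1 lay near the top of the scale, where array values may be compressed, which was not tested either.

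**Figure D3:**
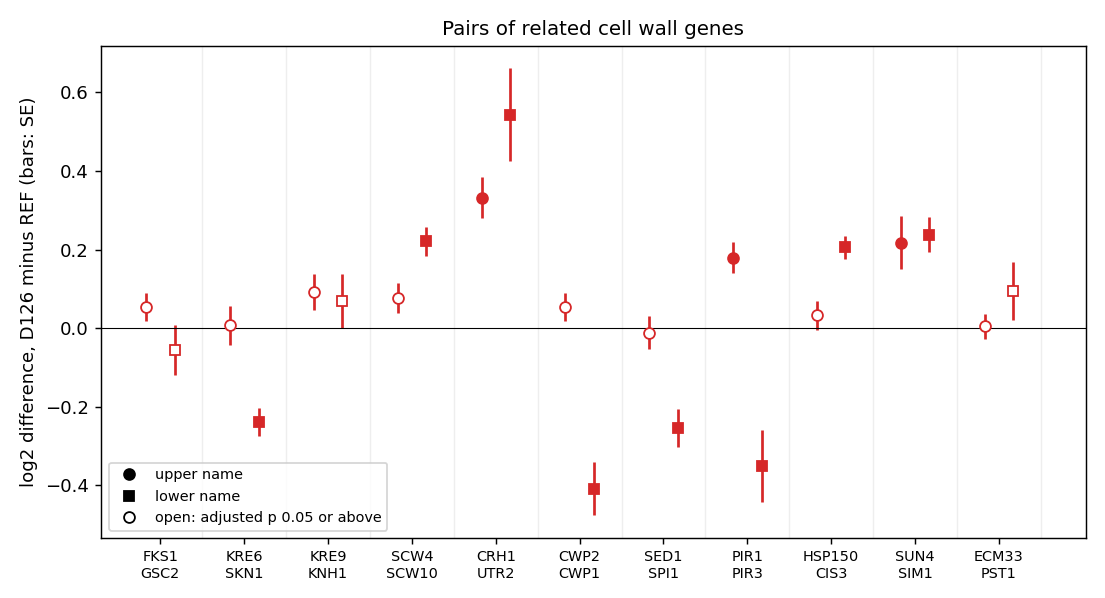
Log2 differences between D126 and REF for 11 pairs of related cell wall genes, with the upper name of each pair as a circle and the lower as a square. Bars are standard errors and filled symbols passed the test. PIR1 (0.18) and PIR3 (-0.35) lie on opposite sides of 0.

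Between D12 and REF the cell wall genes showed no called change. Their differences ran from -0.19 to 0.38, with a median of -0.02 beside 0.01 over all genes. Limma called 0 of the 42, and 3 had an unadjusted p under 0.05, where all genes had 5.98%. The plain linear model per gene also called 0. The 5 genes with the smallest p were HPF1 (0.38, SE 0.06, adjusted p = 0.291), WSC4 (0.20, SE 0.04, 0.503), CHS2 (-0.19, SE 0.04, 0.503), CHS7 (-0.09, SE 0.05, 0.832) and GSC2 (-0.12, SE 0.06, 0.832). The arrays of the 2 strains did not overlap for 5 genes: HPF1 and WSC4, higher in D12, and BGL2, CHS2 and CIS3, lower. That is 11.9% of the cell wall genes beside 10.2% of all genes (6.2% higher and 3.96% lower), so the shares were close. Between D126 and REF the arrays did not overlap for 29 of the 42 genes (69.0%), 21 of them higher and 8 lower in D126, where all genes had 47.9% (22.2% higher and 25.7% lower). Between D126 and D12 they did not overlap for 22 (52.4%), 15 higher and 7 lower, where all genes had 38.4% (14.7% higher and 23.8% lower). An unadjusted p under 0.05 was found for 21 of the 42 genes in each of these comparisons, beside 35.8% and 36.0% of all genes. The F-test for any difference among the 3 strains called 19 (45.2%), beside 20.1% of all genes.

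Other genes of the wall were taken from wider lists, whose shares of called genes stand beside the 21.5% of all genes called between D126 and REF. Of 17 other glucan genes, 3 rose and 1 fell in D126 against REF (23.5%). The daughter-cell glucanase gene DSE4 rose by 0.87 (adjusted p = 2.92e-05) and its relative SCW11 by 0.65 (adjusted p = 1.39e-05), while CRR1, known from spore walls, fell by 0.43 (adjusted p = 0.00534). Of 14 other chitin genes, 3 rose and 0 fell (21.4%): the chitinase gene CTS1 by 0.30 (adjusted p = 0.0121), GNA1 of chitin precursor synthesis by 0.22 (adjusted p = 0.00222) and BUD7, a helper of Chs3 export, by 0.22 (adjusted p = 0.0135). Of 30 genes of protein mannosylation, 3 rose and 1 fell (13.3%), with MNN4 at 0.34, MNN1 at 0.24 and PMT1 at 0.20 (adjusted p = 0.0159, 0.0345 and 0.0142). The first 2 shares were close to that of all genes and the third was below it. The medians of these 3 lists were 0.05, 0.02 and 0.05. Against D12, 4, 3 and 3 of their genes rose and 1, 0 and 1 fell (29.4%, 21.4% and 13.3%, beside 22.0% of all genes).

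Among 25 measured genes for other GPI proteins, 6 rose and 3 fell against REF (36.0%), with a median of 0.03. PRY3, a wall protein of daughter cells, rose by 0.95 (adjusted p = 1.39e-05), SPS100, a spore wall gene, fell by 0.90 (adjusted p = 0.00235), and EGT2, which acts in cell separation, rose by 0.56 (adjusted p = 0.000252). Against D12, 6 rose and 3 fell (36.0%, beside 22.0% of all genes). Of the 8 anaerobic wall mannoprotein genes on a further list, 5 fell and 0 rose against REF (62.5%), with a median of -0.85. PAU24, listed under an older name, fell by 1.48, TIR4 by 1.29 and DAN1 by 0.98 (adjusted p = 0.000333, 0.000757 and 0.000903). Against D12, 5 also fell (62.5%, beside 22.0% of all genes).

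Against REF, signalling genes of the cell wall integrity pathway were called about as often as all genes. Of 26, 1 rose and 4 fell against REF (19.2%, beside 21.5% of all genes), with a median of -0.01. BAG7, a GTPase-activating protein for Rho1, fell by 0.25 (adjusted p = 0.0301). KDX1, a kinase-like gene whose transcript is a known readout of the pathway, fell by 0.23 (adjusted p = 0.0161). The sensor gene WSC3 rose by 0.19 (adjusted p = 0.0402). Against D12, 0 of the 26 rose and 3 fell, a share of 11.5% beside 22.0% of all genes.

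Many markers of the cell cycle rose in D126. Of 13 genes of daughter cells after division, counted without the cell wall genes themselves, 12 rose and 0 fell in D126 against REF (92.3%, beside 21.5% of all genes), with a median of 0.31. PRY3 and DSE4, given above, led this list, followed by BUD9, a bud site protein, at 0.71 (adjusted p = 1.39e-05). The mean log2 level of this list was 10.62 to 10.67 on the REF arrays, 10.57 to 10.61 on the D12 arrays and 11.10 to 11.13 on the D126 arrays. Of 12 genes of cells in G2 and mitosis, 8 rose and 0 fell (66.7%, median 0.18), with the cyclin gene CLB2 at 0.37 (adjusted p = 0.00206), SWI5 at 0.33 (adjusted p = 0.0152) and ALK1 at 0.30 (adjusted p = 0.0101). Their mean level was 10.17 to 10.20 in REF, 10.11 to 10.23 in D12 and 10.35 to 10.38 in D126. Of 15 genes of cells entering S phase, 6 rose and 0 fell (40.0%, median 0.13), with YOX1 at 0.51, CLN1 at 0.38 and CLN2 at 0.31 (adjusted p = 0.000212, 0.00261 and 0.00113), and mean levels of 10.55 to 10.62, 10.57 to 10.62 and 10.71 to 10.79. These lists also hold 8 of the 42 cell wall genes: PIR1, PIR3, SUN4 and CHS1 as daughter-cell genes, CHS2 and WSC4 as genes of mitosis, and FKS1 and GAS1 as genes of S phase entry. Of these 8, PIR1, SUN4, CHS2 and GAS1 rose, PIR3 and WSC4 fell, and CHS1 and FKS1 were not called. All markers measured in these 3 lists lay above background. The part of cell cycle stage in the changes of cell wall genes was not tested, and in such bulk RNA a larger share of cells of 1 stage and more RNA per cell cannot be told apart.

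Markers of mating type and of spores were examined in the same way. Of 7 genes specific to MATa cells, 6 rose and 0 fell against REF (85.7%, beside 21.5% of all genes, median 0.39), led by BAR1 at 0.92, MFA2 at 0.62 and MFA1 at 0.49 (adjusted p = 0.000162, 0.000775 and 0.00163). Their mean level was 11.23 to 11.37 in REF, 11.31 to 11.41 in D12 and 11.71 to 11.74 in D126. Of 5 measured genes of MATalpha cells, 1 rose and 0 fell (20.0%), MF(ALPHA)1 at 0.52 (adjusted p = 0.00527), with mean levels of 7.07 to 7.11, 7.13 to 7.26 and 7.14 to 7.21. HMLALPHA1 was not above background. Of 22 genes of sporulating cells, 1 rose and 3 fell (18.2%), with SPS100 at -0.90, SPR3 at -0.60 and SPS4 at 0.57 (adjusted p = 0.00235, 0.0295 and 0.00793), and mean levels of 8.15 to 8.26, 8.16 to 8.44 and 8.07 to 8.12. SPS2 was not above background. The shares of the MATalpha and sporulation lists were close to that of all genes. The part of these markers in the changes of cell wall genes was not tested.

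**Figure D4:**
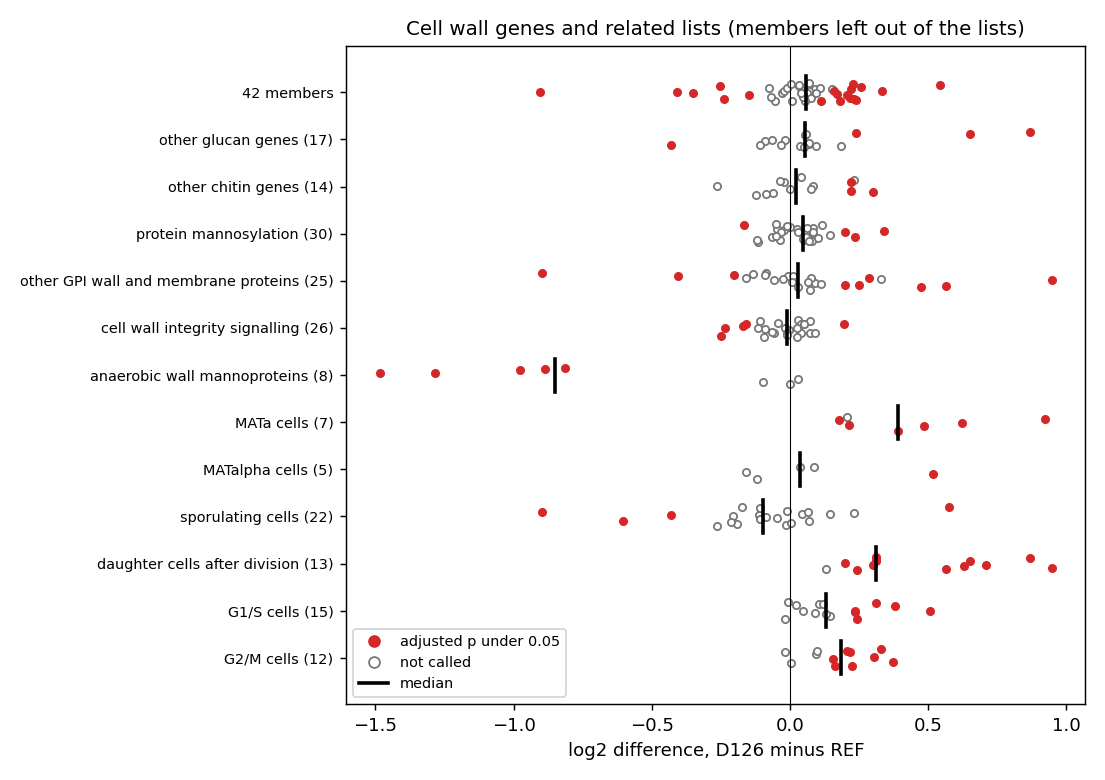
Log2 differences between D126 and REF for each gene of the cell wall genes, the wider wall lists and the marker lists, with the number of genes in brackets. Filled points passed the test and black bars are medians. The median is -0.85 for anaerobic wall mannoproteins, -0.01 for cell wall integrity signalling and 0.31 for daughter-cell genes.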

How the data were processed

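The values are log2 expression levels per probe set as deposited. Per the submitters' processing notes, the authors made them by RMA and used the affy package; versions are not given in those notes. RMA fits the probe intensities of every array to 1 distribution before they are summarised per probe set, so a change in total RNA per cell cannot be seen. Of 10928 probe sets, 5498 carried a gene identifier of the R64 gene table, giving 5449 genes, with the brightest probe set used for the 47 genes that had several. The background limit is the 95th percentile of the means of 1746 probe sets named for genes outside that table.

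Strains were compared with limma 3.58.1 in R 4.3.3: 1 linear model over all 9 arrays, empirical Bayes moderation (6 residual and 3.10 prior degrees of freedom) and Benjamini-Hochberg adjustment over all genes, with calls at an adjusted p under 0.05. The fit was tested on simulated data. The number of arrays limits the precision.

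Replicate numbers come from the labels. Deviations from the strain means correlated at 0.13 to 0.22 for same-numbered REF and D126 arrays, at -0.34 to -0.08 for REF and D12 and at -0.28 to -0.02 for D126 and D12. Differently numbered arrays correlated at -0.23 to 0.05 for REF and D126. For REF and D12 they correlated at -0.19 to 0.30, and for D126 and D12 at -0.14 to 0.24. The main model held no replicate block. A block was fitted only as an alternative, for every comparison, on all arrays and on those of the compared strains alone.

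The 42 genes, the wider lists and the tests were chosen with earlier results of these data known. By rule, every cell wall gene called against REF or D12 is named. Where none was called, the 5 with the smallest p are, and from each wider list the 3 called genes of largest change. Of the entries on the lists, 6 were not analysed here, nor were promoter motifs.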

Additional observations from a re-analysis of the deposited data

How the results depend on the processing

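The 20 alternatives comprised 2 scalings, array weights, other gene or probe set choices, other variance models, the 2 strains of a comparison alone, replicate blocks and leaving out each array. In them, 0 of the called differences changed direction, while differences that were not called changed sign 56 times between D12 and REF, 8 times between D126 and REF and 14 times between D126 and D12, over all cell wall genes and alternatives. The calls of 10 of 19 genes against REF (SKN1, SCW10, CRH1, CHS2, CWP1, SPI1, CIS3, SIM1, HPF1 and MID2) and of 11 of 20 against D12 (these and WSC4) held under every alternative. The count of cell wall genes higher in D126 fell from 13 to 7 against REF and from 14 to 8 against D12 when all 10715 probe sets other than controls were tested, which adjusts over more features. Against D12 it was 9 with the arrays of the 2 strains alone and 6 with the replicate block as well, and the cause was not tested. Leaving out 1 array gave 7 to 14 higher and 4 to 6 lower against REF, and 9 to 15 higher and 5 to 6 lower against D12. The lowest count against REF, 7, was without REF replicate 2, and the count against D12 was 9 without D12 replicate 2, D12 replicate 3 or any 1 D126 array. These fits hold fewer arrays. Between D12 and REF it was 0 throughout. The REF and D126 arrays alone gave 15 higher and 6 lower, adding EXG2 and CHS3, and adding the replicate block to that fit changed no call. With all 9 arrays the block gave 9 and 6, losing GAS1, CCW12, SUN4 and WSC2. The median change against REF was 0.0581, against 0.0739 with quantile normalization and 0.0467 with array weights, and the cause was not tested. Array weights gave 18 higher and 8 lower. The calls over all genes against REF, 1173, became 2615 with array weights, 630 over all probe sets, and 645, 755 and 698 without REF replicate 2, REF replicate 3 and D126 replicate 3. Against D12, 1200 became 2057 with array weights, 655 over all probe sets, 683 without D126 replicate 3, and 780 and 398 with the 2 strains alone, without and with the block.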
